A study of Mus musculus with 14 samples.

Results

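The genes described here are 10 targets of the transcriptional co-activator YAP and its DNA-binding TEAD partners: Ctgf, Cyr61, Ankrd1, Axl, Amotl2, Ajuba, Ccdc80, Crim1, F3 and Nuak2. They were chosen by name, as the rows of these symbols in the deposited gene tables, and are 10 of the 21878 genes listed. The choice was made with earlier results of these data known. Their counts and medians beside those of all tested genes are therefore a description. All 10 passed the filter on low counts, which kept 14100 genes. The study measured RNA from mouse liver cells to ask whether hepatocytes keep their functions in culture when activation of YAP by mechanical tension is limited. It used 14 libraries of C57BL/6 mice in 7 groups of 2. FH were freshly isolated hepatocytes, and FH YAP-/- were freshly isolated hepatocytes labelled as lacking Yap. BM 1D, BM 3D and BM 3W were hepatocytes in the culture labelled BM after 1 day, 3 days and 3 weeks. BM 3W YAP-/- were hepatocytes with the same label after 3 weeks in BM, and LBDXL 3W were hepatocytes after 3 weeks in the culture labelled LBDXL. The labels do not spell out BM or LBDXL, how Yap was removed, or the age and sex of the mice. Nor do they say that both libraries of a group are from different mice or dishes. The p-values below therefore reflect the spread of these libraries alone, which may be technical.

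YAP is held in the cytoplasm when the kinases of the Hippo pathway phosphorylate it, and it enters the nucleus when cells spread on a stiff surface and build tension in their actin cytoskeleton. In the nucleus it binds TEAD factors, which read a short DNA motif, and switches on genes for matrix proteins, cell-surface receptors and regulators of the cytoskeleton. In the adult liver YAP is kept low in hepatocytes and higher in bile duct and stromal cells, and hepatocytes plated on rigid plastic are known to lose their specialised functions.

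The promoters of these genes are shown because TEAD factors read a motif that most of the windows hold. RefSeq windows on GRCm38.p6, from 250 bases before to 50 after the start in the RefSeq table, were available for 7 of the 10 genes: Cyr61, Ankrd1, Axl, Amotl2, Ajuba, Crim1 and F3. They were searched on both strands for the core TEAD motif GGAATG, which reads CATTCC on the opposite strand, for the AP-1 motif TGANTCA, and for the CArG motif read by SRF. The TEAD motif was present in 6 of the 7 windows, with 8 matches in all, against 14.7% of 32851 windows of all genes and 12.6% of 14338 windows of tested genes. F3 had no TEAD match and was the 1 member with AP-1 matches, a motif found in 7.81% of all windows. No member window had a CArG match, which 1.63% of all windows had. A match is a string of letters, not a measured binding site. The sequences run 5′ to 3′ on the strand of the gene, and capitals mark TEAD matches, or AP-1 matches for F3. Those of Cyr61 (chr3:145649986-145650235, minus strand) and Ajuba (chr14:54577662-54577911, minus strand) are given over the whole 250 bases before the start, because both stretches lie outside annotated exons.
Cyr61: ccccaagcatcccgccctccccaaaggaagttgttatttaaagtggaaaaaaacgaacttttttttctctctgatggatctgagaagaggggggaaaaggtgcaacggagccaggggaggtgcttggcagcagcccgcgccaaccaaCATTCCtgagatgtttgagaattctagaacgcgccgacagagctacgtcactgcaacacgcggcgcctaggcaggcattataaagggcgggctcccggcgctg
Ajuba: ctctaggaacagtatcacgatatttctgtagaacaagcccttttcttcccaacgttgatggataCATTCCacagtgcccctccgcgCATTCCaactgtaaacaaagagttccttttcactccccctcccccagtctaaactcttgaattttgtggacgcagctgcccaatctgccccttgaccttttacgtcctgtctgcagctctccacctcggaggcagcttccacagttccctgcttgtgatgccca
The other matches are given as 30-base windows: Ankrd1 at chr19:36120037-36120066 and chr19:36119950-36119979 (minus strand), Axl at chr7:25788949-25788978 (minus strand), Amotl2 at chr9:102717727-102717756 (plus strand) and Crim1 at chr17:78200157-78200186 (plus strand). F3 is given at chr3:121723379-121723420 (plus strand).
Ankrd1, first match: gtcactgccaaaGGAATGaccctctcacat
Ankrd1, second match: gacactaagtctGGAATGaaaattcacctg
Axl: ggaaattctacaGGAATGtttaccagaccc
Amotl2: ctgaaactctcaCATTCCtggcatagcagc
Crim1: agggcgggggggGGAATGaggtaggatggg
F3: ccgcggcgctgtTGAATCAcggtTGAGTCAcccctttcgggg
The start used by the window lies 713 bases inside the gene span given below for Amotl2, 191 for Axl and 15 for Crim1, and at its edge for the other 4 genes. The Ankrd1 and Amotl2 matches lie inside exons annotated for the same genes from other starts, and the F3 window overlaps an exon of Gm43823 on the opposite strand.

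The depth was 15501005 to 21220365 counts a library. Levels are given as TMM-scaled CPM, and fold changes are on the log2 scale with a standard error (SE) from the edgeR quasi-likelihood fit of all 14 libraries. A gene is said to have risen or fallen where the Benjamini-Hochberg adjusted p over 14100 genes was under 0.05. The 10 hepatocyte markers were detected in all libraries, with a summed level of 225000 to 228300 CPM in FH, 3397 to 32680 in BM 3W, 99800 to 115800 in BM 3W YAP-/- and 165900 to 209600 in LBDXL 3W. Alb made up most of each sum, with a mean of 152500 CPM in FH and 85690 in BM 3W YAP-/-. Single markers differed from the sum. Mean Cyp2e1 was 20510 CPM in FH, 39.3 in BM 3W, 1.76 in BM 3W YAP-/- and 137 in LBDXL 3W. Pck1 was at 6351, 0.319, 7.2 and 94.9 CPM in the same order. Against BM 3W, 8 of the 10 rose and 1 fell in BM 3W YAP-/-. In LBDXL 3W 9 rose and none fell. The sum of the 14 stellate cell and fibroblast markers, led by Col3a1 and Col1a1, moved against the hepatocyte sum: 109.8 to 132.3 CPM in FH, 9221 to 11000 in BM 3W, 426.7 to 515.2 in BM 3W YAP-/- and 286.9 to 616.3 in LBDXL 3W. Of these 14 markers, 12 rose in BM 3W against FH, 13 fell in BM 3W YAP-/- and 11 fell in LBDXL 3W, each against BM 3W. Among all tested genes 33.0% rose in the first comparison, 16.6% fell in the second and 23.7% in the third. Bile duct markers (10, with Spp1 leading) also summed higher in BM 3W, at 4506 to 5245 CPM, than in FH (44.3 to 48.1), BM 3W YAP-/- (141 to 160.5) or LBDXL 3W (34.1 to 63.6). Spp1 made up most of the BM 3W sum, and the other bile duct markers summed to 167.6 to 206.8 CPM there, with 22.6 to 22.9 in FH, 175.1 to 197.9 in BM 1D, 73.5 to 85.3 in BM 3W YAP-/- and 24.5 to 48.4 in LBDXL 3W. Kupffer cell and leukocyte markers also summed higher in BM 3W, at 982 to 1120 CPM. They were at 83.9 to 115.5 in FH and 196 to 205 in BM 3W YAP-/-. Of these markers 8 rose in BM 3W against FH, among them Vsig4 (10.36 to 130.3 mean CPM) and Cd5l (25.04 to 87.35). Clec4f (22.2 to 0.165) and Timd4 (2.46 to 0.0686) fell. Marco, a macrophage receptor, was at a mean of 74.98 CPM in BM 3W, against 89.3 in BM 3W YAP-/-. The 9 sinusoidal endothelial markers summed to 97.5 to 122.8 CPM in FH, 11.3 to 13.3 in BM 3W and 1.26 to 1.41 in BM 3W YAP-/-. Ctgf, Axl and Ccdc80 are known to be made by such stromal cells as well. In bulk RNA, fewer cells of a type and less RNA per cell cannot be told apart, and the part of other cell types in the results was not tested. The labels were checked by Yap1 itself, which was at 80.2 and 95.5 CPM in BM 3W. It was at 6.66 and 7.75 CPM in BM 3W YAP-/-, and LBDXL 3W had 97.7 and 96.3. It fell by 3.61 ± 0.21 (SE) in BM 3W YAP-/- (adjusted p = 2.55e-05). In fresh cells it was at 87.6 and 97.6 CPM in FH and 23.1 and 26.5 in FH YAP-/-, a fall of 1.90 ± 0.19 on the log2 scale (adjusted p = 0.00130). FH YAP-/- thus kept 26.8% of the Yap1 level of FH, where BM 3W YAP-/- kept 8.20% of that of BM 3W.

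**Figure D1:**
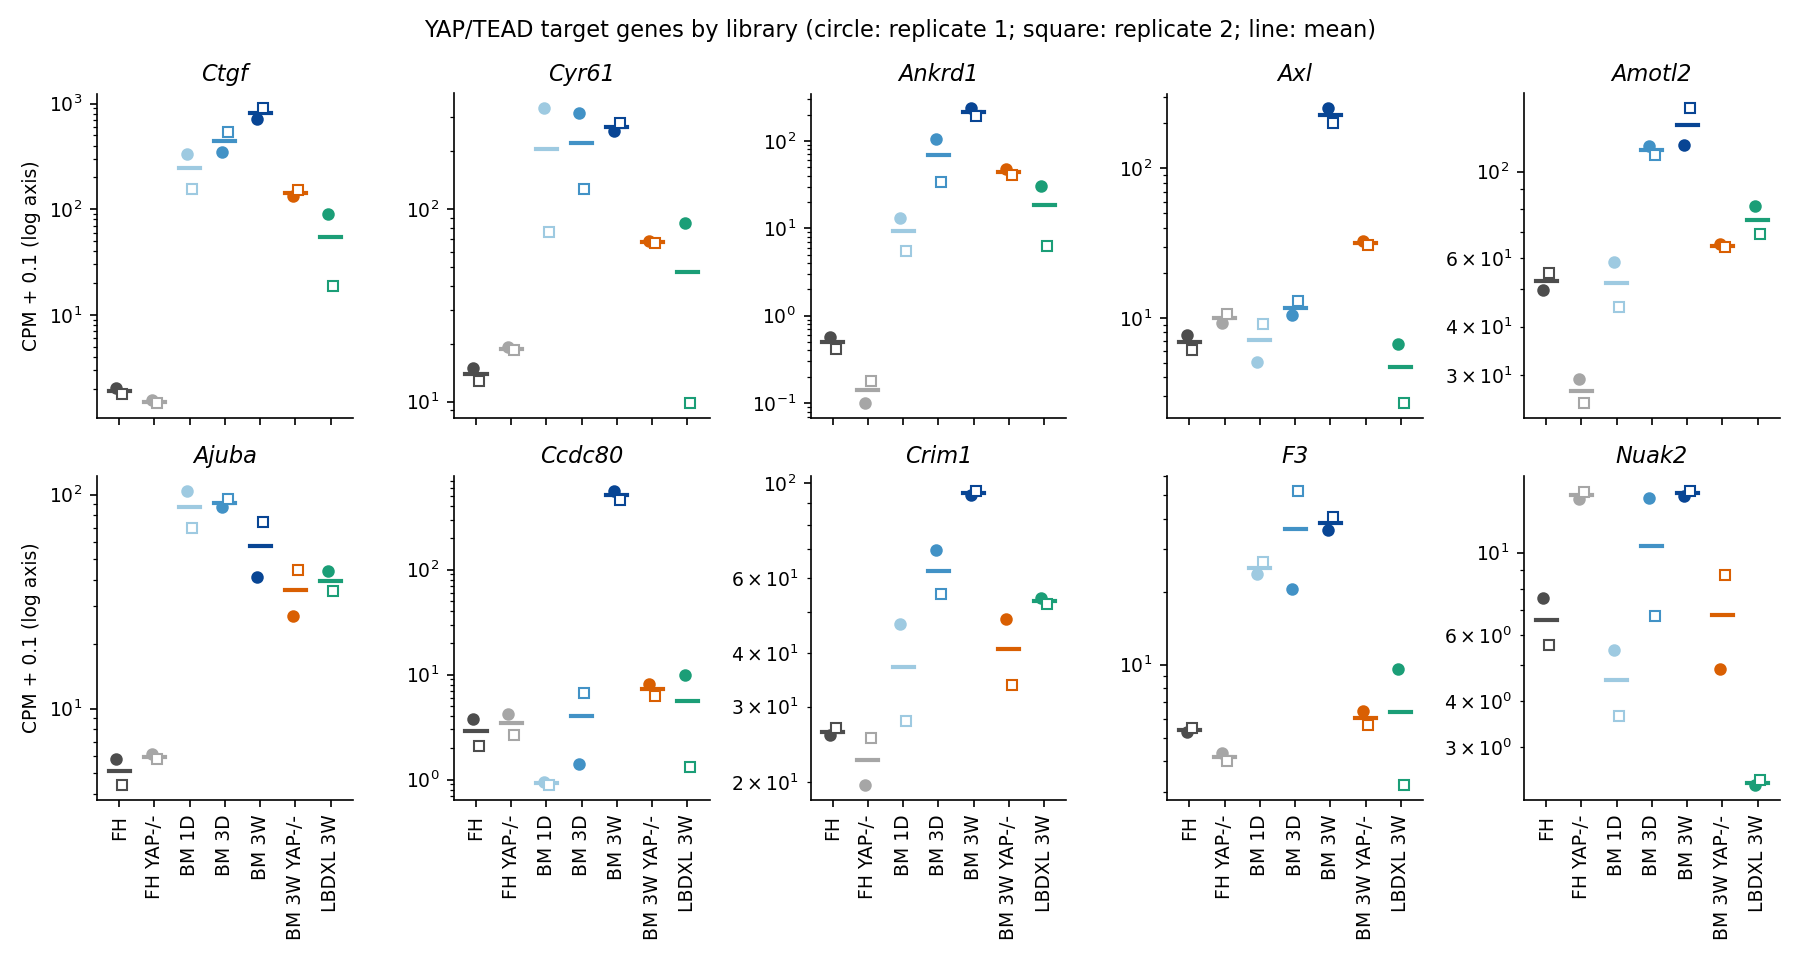
CPM after TMM scaling, plus 0.1 and on a log axis, of the 10 genes in the 7 groups. Circles are replicate 1, squares replicate 2 and lines the mean. BM 3W is the highest group for 9 of the 10 genes, Ajuba being highest in BM 3D.

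In BM culture all 10 genes rose above the fresh cells within 3 weeks, but passed the threshold against FH at different times. The time of passing is not a test of the step between times. That step did not pass for Crim1 from 1 to 3 days (0.75, adjusted p = 0.126) or for Nuak2 from 3 days to 3 weeks (0.48, adjusted p = 0.404). After 1 day 5 of the 10 had risen against FH (Ctgf, Cyr61, Ankrd1, Ajuba and F3), beside 23.6% of all tested genes (20.2% fell), and after 3 days 7 had risen, now with Amotl2 and Crim1, beside 22.5% (17.9% fell). After 3 weeks 10 had risen, beside 33.0% (26.1% fell), and none of the 10 had fallen at any of the 3 times. The median log2 change of the 10 genes was 1.38, 2.02 and 3.90 at the 3 times, against 0.17 for all tested genes at each. These 3 comparisons share the FH libraries. Between 1 and 3 days, Ankrd1 rose by 2.90 (adjusted p = 0.0428) and Amotl2 by 1.13 (adjusted p = 0.0115), the 2 risen members beside 3.67% of all genes, and none fell, beside 1.60%. The Ankrd1 call was lost in 12 of its 25 alternatives (log2 change 1.86 to 3.70 with single libraries left out). Among them were leaving out any 1 library of FH, FH YAP-/-, BM 3W or BM 3W YAP-/-, either BM 1D library or BM 3D replicate 1. The Amotl2 call was lost in 2 of 25, among them without BM 1D replicate 2 (0.95). Between 3 days and 3 weeks, Axl and Ccdc80 rose, beside 13.5% of all genes, and none fell, beside 10.9%. The early rises of Cyr61 also rested on single libraries: its call at 1 day was lost without BM 1D replicate 1 (adjusted p = 0.0508) or FH replicate 2 (0.0544), and its call at 3 days without FH replicate 2 (0.0559).

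Ctgf, Cyr61 and Ccdc80 encode secreted proteins. Ctgf (current symbol Ccn2), at chr10:24595442-24598683, encodes a matricellular protein of the CCN family that promotes matrix production. It was at 1.91 and 1.66 CPM in FH and 1.45 and 1.36 in FH YAP-/-. It stood at 334 and 157 CPM in BM 1D, 351 and 535 in BM 3D and 719 and 902 in BM 3W. It was at 133 and 151 CPM in BM 3W YAP-/-, against 89.96 and 18.7 in LBDXL 3W. The groups did not overlap from fresh cells through each culture time, and BM 3W YAP-/- lay wholly above LBDXL 3W. The rise was already 7.10 ± 0.77 (SE) after 1 day (adjusted p = 6.18e-05) and 8.82 ± 0.82 after 3 weeks (adjusted p = 1.43e-05). Relative to BM 3W it fell by 2.51 ± 0.60 in BM 3W YAP-/- (adjusted p = 0.0104) and fell by 3.90 ± 0.64 in LBDXL 3W (adjusted p = 0.000854). The first call was lost without BM 3W YAP-/- replicate 1 (adjusted p = 0.0663) or replicate 2 (0.0700). An exon of Gm15270 on the opposite strand shares 665 bases with Ctgf. The strand setting of the counting is not stated in these sources, so reads within that stretch cannot be told apart.

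Cyr61 (current symbol Ccn1), at chr3:145646971-145649985, encodes another CCN protein, an immediate early gene that binds integrins. It was at 14.9 and 12.7 CPM in FH and 19.1 and 18.4 in FH YAP-/-. In BM it stood at 335 and 76.2 CPM after 1 day, 316 and 127 after 3 days, and 256 and 279 after 3 weeks. It was at 68.3 and 67.0 CPM in BM 3W YAP-/-, against 84.7 and 9.73 in LBDXL 3W. The 2 libraries of BM 1D, BM 3D and LBDXL 3W each differed widely, and the LBDXL 3W libraries lay on both sides of BM 3W YAP-/- and of FH. Against BM 3W the change in BM 3W YAP-/- was -1.98 ± 0.85 (SE) and did not pass (adjusted p = 0.0949), while DESeq2 gave -2.12 (adjusted p = 0.0252). It passed in 8 of 27 alternatives in all, among them without either LBDXL 3W library. In LBDXL 3W it fell by 2.50 ± 0.86 (adjusted p = 0.0357). That call was lost in 10 of 27 alternatives, including without LBDXL 3W replicate 2 (-1.66, adjusted p = 0.122), without BM 3W replicate 1 (0.0741) or replicate 2 (0.0918), and without any 1 of the BM 3W YAP-/- or FH YAP-/- libraries (adjusted p of Cyr61 0.0508 to 0.0535).

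Ccdc80, at chr16:45093407-45127924, encodes a secreted protein of the extracellular matrix. It was at 3.66 and 1.98 CPM in FH and 4.14 and 2.56 in FH YAP-/-. It stood at 0.858 and 0.781 CPM in BM 1D, 1.30 and 6.65 in BM 3D, and 566 and 462 in BM 3W. It was at 8.07 and 6.19 CPM in BM 3W YAP-/-, against 9.78 and 1.21 in LBDXL 3W. Only the BM 3W libraries were high, and all 12 others were below 10 CPM. From BM 3D to BM 3W it rose by 7.03 ± 0.96 (SE, adjusted p = 0.000637). Compared with BM 3W it fell by 6.17 ± 0.92 in BM 3W YAP-/- (adjusted p = 0.00112) and fell by 6.54 ± 0.94 in LBDXL 3W (adjusted p = 0.000411), the largest falls among the 10 genes in both comparisons.

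The surface proteins follow. Axl, at chr7:25756500-25788924, encodes a receptor tyrosine kinase for Gas6. It was at 7.56 and 6.02 CPM in FH and 9.18 and 10.5 in FH YAP-/-. It stood at 5.01 and 9.06 CPM in BM 1D, 10.4 and 12.9 in BM 3D, and 253 and 201 in BM 3W. It was at 32.5 and 30.8 CPM in BM 3W YAP-/-, against 6.61 and 2.60 in LBDXL 3W. Like Ccdc80 it was high in BM 3W alone, but BM 3W YAP-/- lay above every other remaining group, and LBDXL 3W overlapped with FH. From BM 3D to BM 3W it rose by 4.29 ± 0.41 (SE, adjusted p = 8.75e-05). Against BM 3W it fell by 2.84 ± 0.39 in BM 3W YAP-/- (adjusted p = 0.000736) and fell by 5.61 ± 0.45 in LBDXL 3W (adjusted p = 1.50e-05).

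Crim1, at chr17:78200233-78376592, encodes a transmembrane protein with cysteine-rich repeats that binds bone morphogenetic proteins. It was at 25.6 and 26.6 CPM in FH and 19.5 and 25.2 in FH YAP-/-. It stood at 46.6 and 27.6 CPM in BM 1D, 69.7 and 55.0 in BM 3D, and 94.0 and 96.0 in BM 3W. It was at 48.0 and 33.7 CPM in BM 3W YAP-/-, against 53.7 and 52.0 in LBDXL 3W. Its range was narrow next to those of Ctgf and Ccdc80, and LBDXL 3W lay above BM 3W YAP-/-. Relative to BM 3W it fell by 1.22 ± 0.27 (SE) in BM 3W YAP-/- (adjusted p = 0.00681) and by 0.85 ± 0.27 in LBDXL 3W (adjusted p = 0.0237). The first call was lost without BM 3W YAP-/- replicate 2 (adjusted p = 0.0696). The second was lost in 7 of 27 alternatives, among them without either BM 3W library or either LBDXL 3W library. With single libraries left out it ran from -0.88 to -0.81. Crim1 shares 123 exon bases with Fez2 on the opposite strand, so reads within those bases cannot be told apart either.

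F3, at chr3:121723537-121735052, encodes tissue factor, which starts blood coagulation by binding factor VII. It was at 5.17 and 5.38 CPM in FH and 4.21 and 3.92 in FH YAP-/-. It stood at 23.6 and 26.5 CPM in BM 1D, 20.5 and 52.2 in BM 3D, and 36.0 and 40.6 in BM 3W. It was at 6.32 and 5.53 CPM in BM 3W YAP-/-, against 9.46 and 3.08 in LBDXL 3W. The BM libraries were high at every time, and BM 3W YAP-/- and LBDXL 3W lay near the level of fresh cells, LBDXL 3W overlapping with FH. Compared with BM 3W it fell by 2.69 ± 0.50 (SE) in BM 3W YAP-/- (adjusted p = 0.00330) and fell by 2.60 ± 0.50 in LBDXL 3W (adjusted p = 0.00206).

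Amotl2 and Ajuba encode proteins of the cytoplasm and cell junctions that act back on the pathway. Amotl2, at chr9:102717091-102733418, encodes an angiomotin that binds YAP and holds it outside the nucleus. It was at 49.7 and 54.7 CPM in FH and 29.3 and 25.4 in FH YAP-/-. It stood at 58.4 and 44.8 CPM in BM 1D, 116 and 110.3 in BM 3D, and 117 and 145 in BM 3W. It was at 65.0 and 64.0 CPM in BM 3W YAP-/-, against 81.4 and 68.9 in LBDXL 3W. Cells labelled YAP-/- were below their Yap-carrying counterparts both fresh and in culture, with no overlap. Against BM 3W it fell by 1.03 ± 0.20 (SE) in BM 3W YAP-/- (adjusted p = 0.00372) and fell by 0.80 ± 0.20 in LBDXL 3W (adjusted p = 0.00724). The second call was lost in 4 of 27 alternatives, among them without BM 3W replicate 2 or LBDXL 3W replicate 2. With single libraries left out the change ran from -0.95 to -0.64.

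Ajuba, at chr14:54567469-54577661, encodes a LIM-domain scaffold that is recruited to junctions under tension and inhibits the kinases Lats1 and Lats2. It was at 5.73 and 4.27 CPM in FH and 6.00 and 5.68 in FH YAP-/-. It stood at 104 and 69.9 CPM in BM 1D, 87.5 and 95.4 in BM 3D, and 41.3 and 74.2 in BM 3W. It was at 27.0 and 44.3 CPM in BM 3W YAP-/-, against 43.7 and 35.2 in LBDXL 3W. The 3 groups at 3 weeks overlapped, and all 5 cultured groups lay above both fresh groups. Ajuba had risen by 4.12 ± 0.37 (SE) after 1 day (adjusted p = 2.76e-05). Against BM 3W the change was -0.69 ± 0.32 in BM 3W YAP-/- (adjusted p = 0.121) and -0.55 ± 0.32 in LBDXL 3W (adjusted p = 0.188), neither passing. With scaling by total counts alone both passed, at -1.36 (adjusted p = 0.0122) and -1.39 (adjusted p = 0.00732). In all, each passed in 4 of 27 alternatives.

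Ankrd1, at chr19:36111965-36119844, encodes an ankyrin-repeat protein of the nucleus and sarcomere, and is widely used as a readout of YAP. It was at 0.477 and 0.317 CPM in FH and 0 and 0.0800 in FH YAP-/-. It stood at 13.2 and 5.36 CPM in BM 1D, 105 and 33.7 in BM 3D, and 236 and 192 in BM 3W. It was at 48.1 and 40.1 CPM in BM 3W YAP-/-, against 30.2 and 6.16 in LBDXL 3W. The cultures at 3 weeks were separate from each other, in the order BM 3W, BM 3W YAP-/-, LBDXL 3W, and all lay above FH. Relative to BM 3W it fell by 2.28 ± 0.69 (SE) in BM 3W YAP-/- (adjusted p = 0.0294) and fell by 3.55 ± 0.73 in LBDXL 3W (adjusted p = 0.00304). The first call was lost in 6 of 27 alternatives, among them without any 1 of the 4 libraries compared. With single libraries left out the change ran from -2.42 to -2.11.

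Nuak2, at chr1:132316125-132333488, encodes a kinase of the AMPK-related family that acts on actomyosin. It was at 7.48 and 5.54 CPM in FH and 13.9 and 14.5 in FH YAP-/-. It stood at 5.37 and 3.54 CPM in BM 1D, 13.9 and 6.65 in BM 3D, and 14.1 and 14.6 in BM 3W. It was at 4.76 and 8.60 CPM in BM 3W YAP-/-, against 2.27 and 2.36 in LBDXL 3W. LBDXL 3W was its lowest group, wholly below fresh cells, and FH YAP-/- was close to BM 3W. Its rise of 1.14 ± 0.41 (SE) in BM 3W against FH (adjusted p = 0.0313) was lost in 5 of 25 alternatives. Among them was leaving out any 1 of those 4 libraries. Against BM 3W the change was -1.10 ± 0.40 in BM 3W YAP-/- (adjusted p = 0.0571). That change passed in 8 of 27 alternatives, among them DESeq2 (adjusted p = 0.0146) and leaving out either BM 3D library. In LBDXL 3W it fell by 2.63 ± 0.43 (adjusted p = 0.000841).

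In BM 3W YAP-/- against BM 3W, 7 of the 10 genes fell and none rose: Ctgf, Ankrd1, Axl, Amotl2, Ccdc80, Crim1 and F3. Of all tested genes 16.6% fell and 15.0% rose. The median log2 change of the 10 genes was -2.13, against -0.03 over all tested genes. Both BM 3W libraries were above both BM 3W YAP-/- libraries for 9 genes, the exception being Ajuba. The share of all tested genes separated in this way was not counted, so the 9 cannot be set against it. Leaving out BM 3W YAP-/- replicate 2 left 4 calls, Axl, Amotl2, Ccdc80 and F3. In LBDXL 3W against BM 3W, 9 of the 10 genes fell and none rose, the 7 above with Cyr61 and Nuak2, beside 23.7% of all tested genes that fell and 21.1% that rose. The median log2 change was -2.62, against -0.02. Leaving out LBDXL 3W replicate 2 or BM 3W replicate 2 left 6 calls. The 2 comparisons share the BM 3W libraries, so their likeness cannot be read as a relation. Scaling by total counts alone moved the median of all genes by -0.64 and -0.82 in these comparisons and turned the split of all called genes from 2117 risen and 2342 fallen to 798 and 5053 for BM 3W YAP-/-, and from 2980 and 3343 to 1135 and 6650 for LBDXL 3W. On that scale all 10 genes fell in both.

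**Figure D2:**
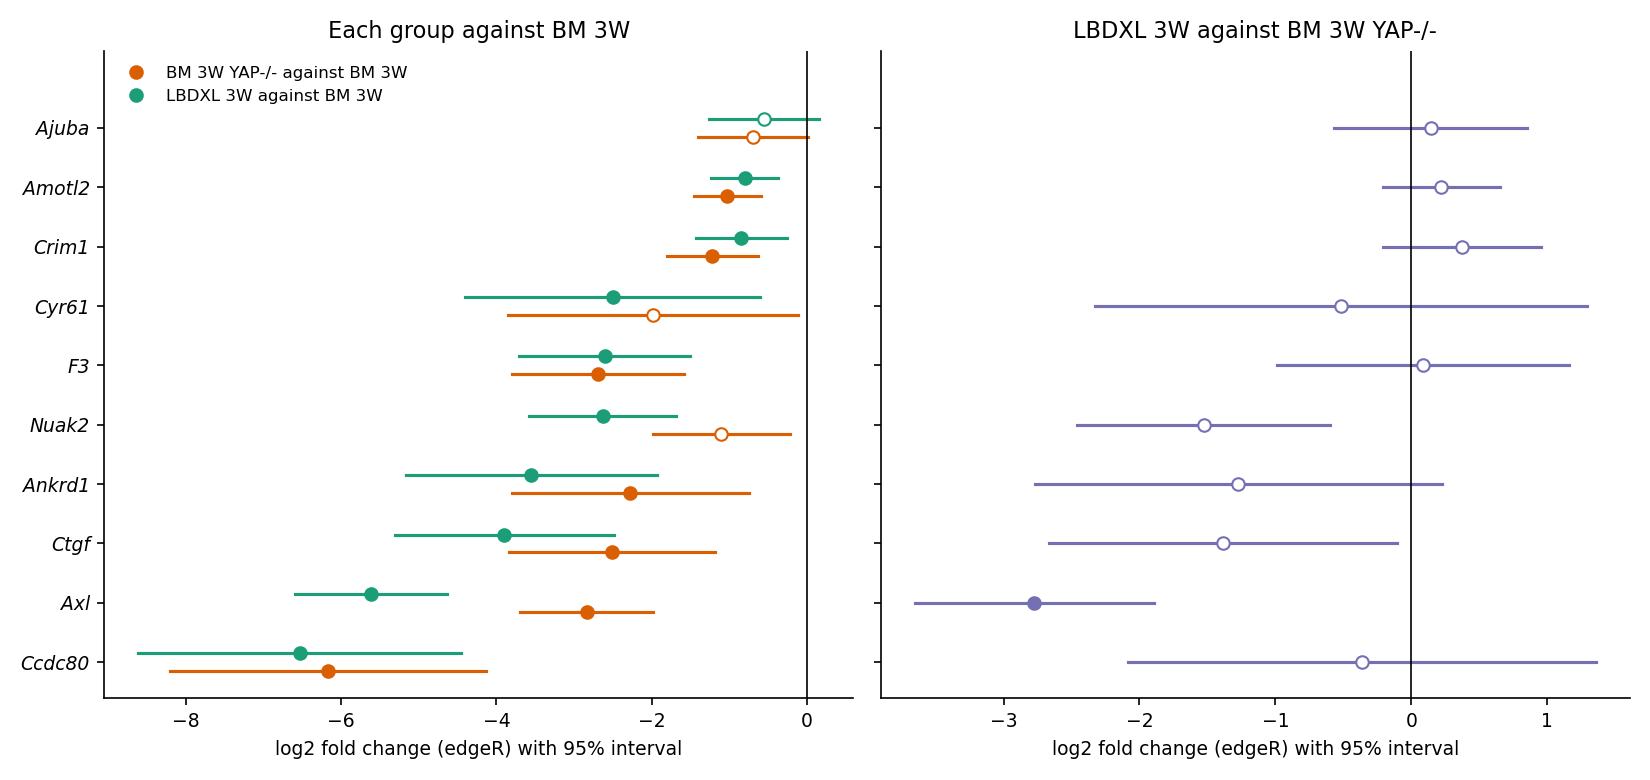
Left, log2 fold change with 95% interval of each gene in BM 3W YAP-/- and in LBDXL 3W, each against BM 3W. Right, LBDXL 3W against BM 3W YAP-/-. Filled symbols passed an adjusted p of 0.05. On the right Axl is the 1 filled symbol, at -2.77.

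The difference between losing Yap and changing to LBDXL was tested directly, as LBDXL 3W against BM 3W YAP-/-, where the shared controls drop out. Axl was the 1 member that differed, lower in LBDXL 3W by 2.77 ± 0.40 (SE, adjusted p = 0.00356, 95% interval -3.65 to -1.90), beside 4.33% of all tested genes that were lower and 2.61% that were higher. That Axl call was lost when the fit held only these 2 groups (adjusted p = 0.0586). Nuak2 was at -1.53 ± 0.42 (adjusted p = 0.0540, interval -2.46 to -0.60). It passed in 5 of 25 alternatives, among them DESeq2 (adjusted p = 0.00944) and leaving out either BM 3D library. Ctgf was at -1.39 (interval -2.67 to -0.11, adjusted p = 0.174), Ankrd1 at -1.27 (-2.77 to 0.22, adjusted p = 0.286) and Cyr61 at -0.52 (-2.33 to 1.30, adjusted p = 0.756). The LBDXL 3W libraries of these 3 genes were far apart. Without LBDXL 3W replicate 1, which leaves 1 library in that group, Ctgf was at -2.93, Cyr61 at -2.80 and Ankrd1 at -2.84. At the other end, with single libraries left out, Ctgf reached -0.66, Cyr61 0.32 and Ankrd1 -0.54. The difference for these 3 genes thus depended on which library was kept. For Amotl2 the interval was -0.21 to 0.65, for Crim1 -0.21 to 0.95, for Ajuba -0.57 to 0.85, for F3 -0.99 to 1.16 and for Ccdc80 -2.09 to 1.36. None of these 5 genes passed, and the intervals of F3 and Ccdc80 reach beyond 1 log2 unit.

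Set as a percentage of mean BM 3W CPM, the 10 genes spread widely. Ccdc80 kept 1.39% in BM 3W YAP-/- and 1.07% in LBDXL 3W. Axl kept 13.98% and 2.03%, Ctgf 17.5% and 6.70%, Ankrd1 20.6% and 8.51%, and Cyr61 25.3% and 17.6%. F3 kept 15.5% and 16.4%, close to the 13.8% of FH. Nuak2 kept 46.5% and 16.1%, with FH at 45.3%. Amotl2 kept 49.1% and 57.3%, Crim1 43.0% and 55.6%, and Ajuba 61.8% and 68.3%. The remaining expression of Amotl2, Crim1 and Ajuba was above 40% in both groups, and FH was at 39.8%, 27.5% and 8.66% for these genes.

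**Figure D3:**
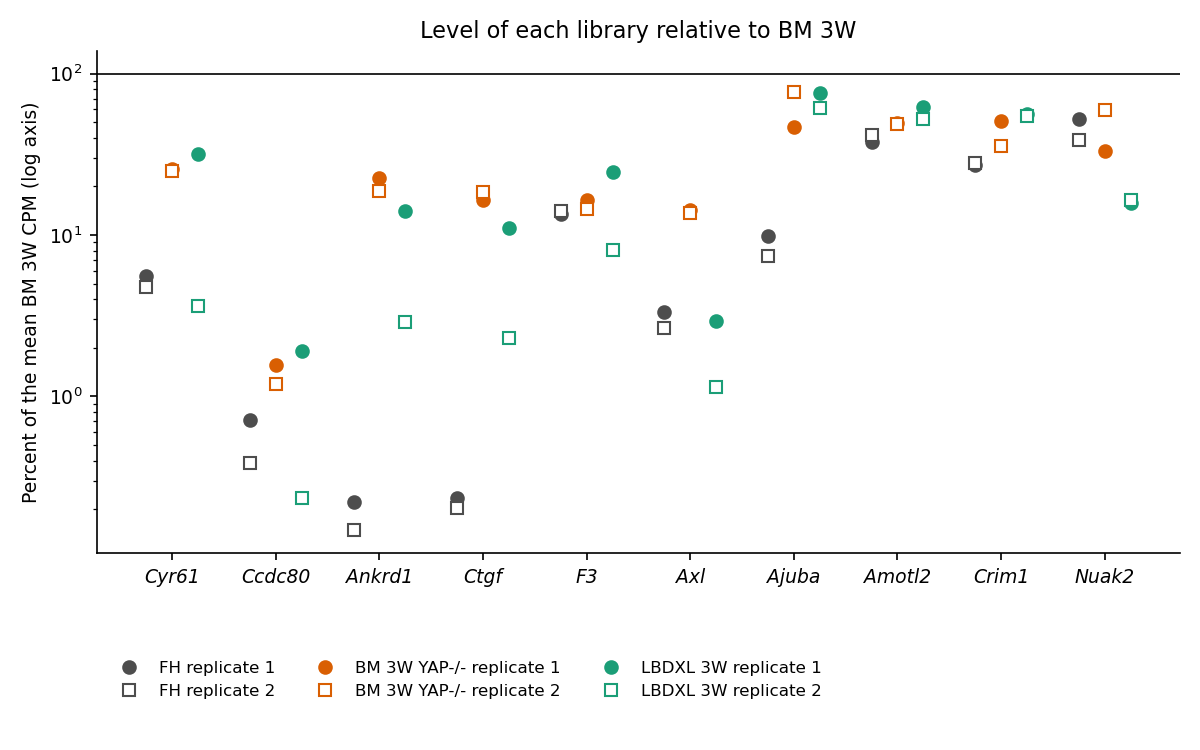
CPM of each library of FH, BM 3W YAP-/- and LBDXL 3W as a percentage of the mean of BM 3W, on a log axis, for the 10 genes. Ccdc80 lies lowest in the cultured groups, at 1.39% and 1.07% on average, and Ajuba highest, at 61.8% and 68.3%.

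In FH YAP-/- against FH, where part of the Yap1 RNA remained, none of the 10 genes passed the edgeR test, and 0.489% of all tested genes rose and 0.454% fell. At an unadjusted p under 0.05 there were 2, Amotl2 and Nuak2, and DESeq2 called 1, Amotl2. Amotl2 was at -0.93 ± 0.20 (SE, adjusted p = 0.0623) and passed without either library of BM 1D or LBDXL 3W (0.0437 to 0.0482). Nuak2 was at 1.12 ± 0.41 (adjusted p = 0.378), higher in both FH YAP-/- libraries. A fit of these 4 libraries alone, whose own spread is small, called Amotl2 lower (-0.92, adjusted p = 9.56e-09) and Nuak2, Cyr61 and Axl higher (1.13, 0.45 and 0.54). It called 4251 genes in all, against 133 in the fit of 14 libraries. Ankrd1 had 10 reads in FH and 1 in FH YAP-/-, a ratio of 10.7 with a counting interval of 1.52 to 464.7. That interval pools the reads of each group and leaves out the spread between libraries. By the edgeR test the Ankrd1 change was -3.21 (95% interval -8.01 to 1.59, adjusted p = 0.830).

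The difference between YAP-/- and control libraries at 3 weeks was unlike that in fresh cells for 4 of the 10 genes by the interaction term, beside 8.84% of all tested genes in the same direction and 8.04% in the other. Yap1 itself had an interaction of -1.71 ± 0.27 (SE, adjusted p = 0.00314), so its RNA was reduced to different depths in the 2 settings, and the part of this in the differences below was not tested. Ccdc80 had an interaction of -6.43 ± 1.21 (SE, adjusted p = 0.00693) and Axl -3.37 ± 0.54 (adjusted p = 0.00375), and both were called in all 25 alternatives. F3 was at -2.32 ± 0.70 (adjusted p = 0.0459) and Nuak2 at -2.23 ± 0.57 (adjusted p = 0.0243). The F3 call was lost in 11 of 25 alternatives, among them leaving out any 1 library of the 4 groups compared or of BM 1D, and the Nuak2 call in 8, among them any 1 of those libraries but BM 3W YAP-/- replicate 2 and the BM 1D libraries. Nuak2 had opposite signs, at 1.12 in fresh cells and -1.10 in culture, neither of which passed alone. For the other 6 genes the interaction did not pass (adjusted p 0.0947 to 0.882). Of these, Ctgf (-2.17, adjusted p = 0.130) passed with DESeq2 (0.0421) and without LBDXL 3W replicate 1 (0.0226) or replicate 2 (0.0227), and in 8 of 25 alternatives in all. Crim1 (-0.99, adjusted p = 0.0947) passed in 6 of 25, among them DESeq2 (-1.12, 0.0429), Ajuba in 3 and Cyr61 in 1.

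**Figure D4:**
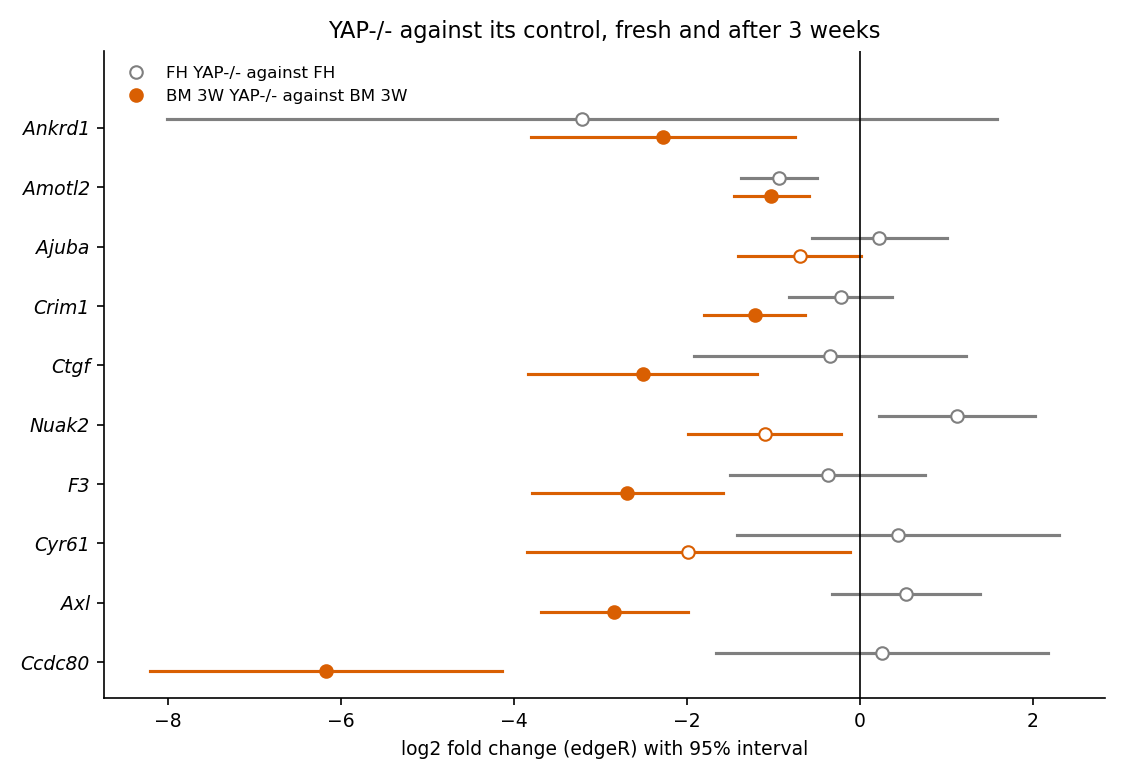
Log2 fold change with 95% interval of each gene in FH YAP-/- against FH and in BM 3W YAP-/- against BM 3W. Filled symbols passed an adjusted p of 0.05. None of the fresh-cell symbols is filled, and 7 of the cultured ones are.

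Several of the genes rose in culture in cells labelled YAP-/- too. In BM 3W YAP-/- against FH YAP-/-, 6 of 10 rose and none fell, beside 19.8% of all tested genes that rose and 16.5% that fell. Ctgf rose by 6.65 ± 0.76 (SE, adjusted p = 0.000155), Ajuba by 2.61 ± 0.35 (adjusted p = 0.000382), Axl by 1.69 ± 0.38 (adjusted p = 0.00601), Amotl2 by 1.24 ± 0.20 (adjusted p = 0.000922) and Crim1 by 0.87 ± 0.27 (adjusted p = 0.0269). Ankrd1 went from 1 read to 1787, a ratio of 1192 with a counting interval of 213.7 to 4.71e+04. That interval too leaves out the spread between libraries. By the edgeR test Ankrd1 rose by 9.99 ± 1.31 (adjusted p = 0.000322). The Axl call was lost without FH YAP-/- replicate 1 (adjusted p = 0.0561), and the Crim1 call without that library (0.186), FH YAP-/- replicate 2 (0.0607), BM 3W YAP-/- replicate 1 (0.192) or FH replicate 2 (0.0512). In LBDXL 3W against FH, 4 of 10 rose, beside 11.7%: Ctgf by 4.92 ± 0.70 (adjusted p = 0.000947), Ankrd1 by 5.50 ± 0.98 (0.00307), Ajuba by 2.98 ± 0.36 (0.000380) and Crim1 by 1.02 ± 0.27 (0.0214). Nuak2 fell by 1.49 ± 0.43 (adjusted p = 0.0296), beside 9.60% of all genes, a call lost in 10 of 25 alternatives, among them without any 1 library of FH (0.0698 to 0.173) or LBDXL 3W (0.0791 to 0.117). The Crim1 call was lost in 4 of 25 alternatives, among them without either FH library or LBDXL 3W replicate 1.

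The 2 LBDXL 3W libraries differed in most of these genes. Replicate 1 was the higher for 9 of the 10, by a median log2 ratio of 1.45 against 0.01 over all tested genes. Cyr61 was 8.71 times, Ccdc80 8.09, Ankrd1 4.91, Ctgf 4.82, F3 3.07 and Axl 2.54 times as high in replicate 1, while Ajuba, Amotl2, Crim1 and Nuak2 differed by 1.24 times or less. Other cell type markers differed between the same libraries: the stellate and fibroblast sum was 616.3 CPM in replicate 1 and 286.9 in replicate 2, and the 9 endothelial markers summed to 143.4 and 3.87, with Clec4g, Tek and Oit3 at 0 in replicate 2. The 10 Kupffer cell and leukocyte markers were low in both, at 2.22 and 2.84 CPM, with Clec4f and Timd4 at 0. Their part in the difference was not tested.

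Compared per length as FPKM, which allows levels of different genes to be set side by side, Ctgf was the most abundant member in BM 3W at a mean of 540 FPKM, ahead of Cyr61 at 193.6, Ankrd1 at 123.7 and Ccdc80 at 122.1. Nuak2 was the least abundant at 5.90. In FH the order was different: Amotl2 led at 6.94 FPKM, with Crim1 at 2.75 and Cyr61 at 2.61, and Ankrd1 was lowest at 0.0399. In BM 3W YAP-/- Ctgf was at 61.5 FPKM, Cyr61 at 30.4 and Ankrd1 at 17.5, and in LBDXL 3W at 21.2, 18.5 and 6.01.

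A further list held 13 other YAP/TEAD targets. Of the 12 tested, 10 rose in BM 3W against FH and 1 fell, Dock5 (-1.28). In LBDXL 3W against BM 3W 9 fell and none rose, with a median of -2.80, and in BM 3W YAP-/- 7 fell and none rose, with a median of -1.51. The shares of all tested genes were 33.0% risen and 26.1% fallen, then 23.7% fallen, then 16.6% fallen. The 7 fell in both: Myof, a membrane repair protein (-3.73 in LBDXL 3W and -2.83 in BM 3W YAP-/-), the Hippo kinase Lats2 (-0.69 and -1.15), Asap1 (-1.45 and -1.75), the growth factor binding protein Igfbp3 (-3.64 and -2.34), Arhgef17 (-4.16 and -3.17), Rbms3 (-3.38 and -2.68) and Fjx1, which had 298 and 568 reads in BM 3W, with 12 and 21 in BM 3W YAP-/-, against 3 and 1 in LBDXL 3W. The phosphatase Ptpn14 fell in LBDXL 3W (-3.83) but was at -1.27 in BM 3W YAP-/- (adjusted p = 0.129), and the direct test put it lower in LBDXL 3W by 2.56 ± 0.64 (SE, adjusted p = 0.0394). Its values were 78.8 and 121 CPM in BM 3W, with 45.6 and 37.2 in BM 3W YAP-/-, against 11.95 and 1.99 in LBDXL 3W. Tgfb2, a TGF-beta ligand, fell in LBDXL 3W (-2.22) and was at -0.49 in BM 3W YAP-/- (adjusted p = 0.566), but the direct test did not separate the groups (adjusted p = 0.120). Gadd45a, Nt5e and Dock5 passed in neither comparison, and Foxf2 did not pass the filter.

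Parts of the Hippo pathway itself also moved. Of 20 tested, 11 rose and 1 fell in BM 3W against FH, 10 fell and 1 rose in LBDXL 3W against BM 3W, and 11 fell and 1 rose in BM 3W YAP-/- against BM 3W. The last 11 include Yap1, the gene removed. Ptpn14 of the list above is on this list too, and is counted again among the 11 risen and the 10 fallen. Among all tested genes 33.0% rose and 26.1% fell in the first comparison. In the second 23.7% fell and 21.1% rose, and in the third 16.6% fell and 15.0% rose. The TEAD factors, which bind the DNA, were among them. Tead1 was at 12.4 and 11.7 CPM in FH, 156 and 143 in BM 3W, with 60.2 and 39.8 in BM 3W YAP-/-, against 76.7 and 31.96 in LBDXL 3W. It fell by 1.58 ± 0.38 (SE) in BM 3W YAP-/- (adjusted p = 0.0108) and fell by 1.46 ± 0.38 in LBDXL 3W (adjusted p = 0.0102). Tead2 fell by 2.59 and 4.08 and Tead3 by 1.04 and 1.23 in the same comparisons, and Tead4 fell by 3.15 in LBDXL 3W and was at -1.41 in BM 3W YAP-/- (adjusted p = 0.200). Wwtr1, the YAP paralogue TAZ, fell by 0.86 ± 0.29 in BM 3W YAP-/- (adjusted p = 0.0450) and was at -0.20 in LBDXL 3W (adjusted p = 0.616). The scaffolds and adaptors Sav1 (-0.94 and -0.85), Mob1a (-0.94 and -0.82), Wwc2 (-1.29 and -0.92) and Frmd6 (-1.57 and -1.80) fell in both. Nf2 (-0.66) and Vgll4 (-1.15), a competitor of YAP for TEAD, fell in BM 3W YAP-/-, and the kinase Map4k4 fell in LBDXL 3W (-1.77). Wwc1 rose by 0.60 in both. Yap1 in LBDXL 3W was at 0.14 against BM 3W (adjusted p = 0.555).

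The last list held 18 paralogues and partners of the 10 genes. Of 17 tested, 11 rose and 3 fell in BM 3W against FH, 11 fell and 2 rose in LBDXL 3W, and 6 fell and 2 rose in BM 3W YAP-/-. These stand beside 33.0% risen and 26.1% fallen, 23.7% fallen and 21.1% risen, and 16.6% fallen and 15.0% risen among all tested genes. In the CCN family of Ctgf and Cyr61, Wisp1 was at 61.8 and 71.9 CPM in BM 3W, with 1.90 and 1.56 in BM 3W YAP-/-, against 0.211 and 0.242 in LBDXL 3W. Wisp2 was at 92.0 and 155 CPM in BM 3W, with 14.8 and 25.2 in BM 3W YAP-/-, against 0.476 and 1.33 in LBDXL 3W. Both were lower in LBDXL 3W than in BM 3W YAP-/-, Wisp1 by 2.90 ± 0.66 (SE, adjusted p = 0.0268) and Wisp2 by 4.48 ± 0.61 (adjusted p = 0.00483). Nov had 35 and 91 reads in BM 3W, with 1 and 0 in BM 3W YAP-/- and none in LBDXL 3W. The angiomotin Amotl1 fell in both (-3.45 in LBDXL 3W and -3.08 in BM 3W YAP-/-). Of the Axl relatives, Mertk fell in both (-1.78 and -2.34) and Tyro3 in LBDXL 3W (-3.91), where the ligands Gas6 (-1.97) and Pros1 (-1.10) fell too. The Ajuba relative Wtip (-3.86) and the Nuak2 relative Nuak1 (-2.75) fell in LBDXL 3W, and in BM 3W YAP-/- were at -1.66 (adjusted p = 0.0559) and -1.18 (adjusted p = 0.0505). Around tissue factor, the inhibitor Tfpi fell in both (-3.22 and -2.17), and the coagulation factors F7 (3.85 and 3.47) and F10 (3.77 and 2.89), which hepatocytes secrete, rose in both.

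Across the 14 libraries the 10 genes did not vary as 1 block. Against the mean of their standardised log2 CPM, Pearson's r was 0.914 for Ctgf, 0.913 for Ankrd1 and 0.894 for Crim1, but 0.701 for Ccdc80 and 0.302 for Nuak2. That mean includes the gene itself, which raises r. The mean r with the other members was 0.684, 0.683, 0.667, 0.499 and 0.152 for these genes, in the same order. The closest pairs were Ctgf and Ankrd1 (0.944) and Ctgf and Ajuba (0.939), and the most distant was Ajuba and Nuak2 (-0.175). Axl and Ccdc80 formed a pair of their own (0.913), both high in BM 3W alone. Among 9933 other genes, Ppp1r18 (0.981), Sfxn3 (0.979), Zfp57 (0.977), the Notch ligand Jag1 (0.975), Pxdn (0.974), the integrin Itga2 (0.974), Zfp462 (0.974) and Nfkb1 (0.973) were nearest to the mean profile. For single members the nearest genes were Krt20 for Ctgf (0.988), Sestd1 for Cyr61 (0.98), Syt14 for Ankrd1 (0.987), Arhgef40 for Axl (0.976), Osbpl3 for Amotl2 (0.943), Klf6 for Ajuba (0.984), Cygb for Ccdc80 (0.98), Abl1 for Crim1 (0.968), Cav2 for F3 (0.961) and Prps2 for Nuak2 (0.907). Cygb, a globin of stellate cells, was at a mean of 64.9 CPM in BM 3W, 3.27 in BM 3W YAP-/- and 2.62 in LBDXL 3W. These 14 points share the difference between fresh and cultured cells and the scaling of each library, and are given as a description.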

How the data were processed

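For 14 libraries of 7 groups the authors deposited raw gene-level counts, and FPKM in a separate table. Per the labels' protocols, total RNA was prepared with RNeasy kits and libraries with a TruSeq stranded mRNA kit, sequenced in pairs. HISAT2, HTSeq, DESeq, Cufflinks and Trimmomatic, on GRCm38.p6, are named in the submitters' processing notes; versions, settings and the strand setting of counting are not stated in these sources. The symbols of 27 genes altered by a spreadsheet were restored from gene IDs.

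The test was edgeR 4.0.16 (R 4.3.3): filterByExpr by group (14100 genes kept), TMM, all 14 libraries in 1 model of group means, quasi-likelihood F-tests, and Benjamini-Hochberg adjustment over all genes kept, called under 0.05. SE is the fold change over the root of its F. TMM factors ran from 0.648 to 1.69 and Alb held 0.482 to 17.3% of counts. In simulated data for LBDXL 3W against BM 3W (13983 genes), 100 genes were changed by 1 log2 unit and 100 by 2. The other 13783 were left unchanged. Of the changed genes 10% and 59% were called. In the real comparison 23.7% of tested genes fell and 21.1% rose. Its adjusted threshold was therefore less strict, and the 10% and 59% do not carry over to it. Between replicates, chi-square per degree of freedom was 5.49 in FH and 4.04 in FH YAP-/-. In the cultured groups it ran from 68 in BM 3W YAP-/- to 235.2 in LBDXL 3W. No pair of libraries agreed within sampling noise, and the fresh pairs were far closer than the cultured ones.

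Alternatives were DESeq2 1.42.0 and its size factors, total counts, no filter, the compared groups alone, a replicate block, removal of the 20 most abundant genes, limma 3.58.1 on log2(FPKM + 1 or + 0.1) with and without a filter at a mean FPKM of 0.5, each library left out, LBDXL 3W replicate 1 and BM 3W replicate 2 left out together, and a separate BM 3W library for each comparison. Named genes were the 10 members, Yap1, Wwtr1, genes of 3 lists (other targets, pathway parts, paralogues and partners) called in either comparison with BM 3W, the leading markers, and the genes of at least 5 mean CPM nearest in profile. The members, lists and tests were chosen with earlier results of these data known. Promoter and location data came from RefSeq on GRCm38.p6, the exon overlaps from the annotation of the same build.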

Additional observations from a re-analysis of the deposited data

Results flagged for a closer look

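For 4 of the 10 genes the difference between YAP-/- and control libraries after 3 weeks in BM was unlike that in fresh hepatocytes, by a test of the difference itself in the fit of all 14 libraries (edgeR, Benjamini-Hochberg adjusted). Among all tested genes 8.84% were called in the same direction and 8.04% in the other. The difference in log2 change, culture minus fresh, was -6.43 for Ccdc80 (adjusted p = 0.00693), -3.37 for Axl (0.00375), -2.32 for F3 (0.0459) and -2.23 for Nuak2 (0.0243). The F3 call was lost in 11 of 25 alternatives and the Nuak2 call in 8 of 25. Ccdc80, Axl and F3 were low in both FH and FH YAP-/-, at 1.98 to 10.5 CPM. Nuak2 was higher in FH YAP-/- than in FH and lower in BM 3W YAP-/- than in BM 3W, with no overlap of libraries in either comparison. Of the 14 stellate cell and fibroblast markers, 13 fell in BM 3W YAP-/- against BM 3W, beside 16.6% of all tested genes. The 14 markers summed to 103.7 to 121.7 CPM in FH YAP-/- and 109.8 to 132.3 in FH. Yap1 RNA was itself reduced less in fresh cells (-1.90) than in culture (-3.61), an interaction of -1.71 ± 0.27 (SE, adjusted p = 0.00314). The part of the markers and of Yap1 in these differences was not tested.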

How the results depend on the processing

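Of 3039 values of the 10 genes under alternatives, 2782 kept their direction and side of the threshold, 91 lost the call, 111 gained it and 55 changed sign. Of 608 counts of members under alternatives, 60 moved by over 1.5 times. The replicate numbers were not taken to pair libraries, since only 5 of 21 pairs of groups had deviations of same-numbered libraries correlated above 0.1 (r from -0.0231 to 0.461, and 0.311 for BM 3W with BM 3W YAP-/-). With the replicate block, 3 of 24 counts changed and none by over 1.5 times; Cyr61 fell in BM 3W YAP-/- (-2.01, adjusted p = 0.0498), Ankrd1 rose from BM 3D to BM 3W (1.86, 0.0147), and the F3 interaction no longer passed (-2.31, 0.0509).

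Counts of the 10 genes moved as follows. Fallen in BM 1D against FH: 1 with the compared groups alone. Risen from BM 1D to BM 3D: 4 with DESeq2 and 0 with the groups alone. Risen from BM 3D to BM 3W: 4 in each limma fit of FPKM. Fallen in LBDXL 3W against FH: 0 with total counts, the groups alone and each limma fit. In FH YAP-/- against FH, 1 fell with DESeq2, 3 rose and 1 fell with the groups alone, and 1 fell without LBDXL 3W replicate 1 and BM 3W replicate 2. In BM 3W YAP-/- against FH YAP-/-, 1 fell with DESeq2, its size factors and the groups alone. In LBDXL 3W against BM 3W YAP-/-, 2 fell with DESeq2, its size factors and no filter, 0 with the groups alone and 3 with both libraries left out. The interaction was negative for 7 with total counts, the groups alone and limma with 0.1 or without a filter, and for 8 with limma at a pseudocount of 1. With each library left out in turn, fallen counts ran from 4 to 8 for BM 3W YAP-/- against BM 3W, 0 to 1 for BM 3W YAP-/- against FH YAP-/-, 0 to 1 for FH YAP-/- against FH, 1 to 4 for LBDXL 3W against BM 3W YAP-/-, 0 to 1 for LBDXL 3W against FH and 2 to 5 for the interaction, and risen counts from 0 to 3 for BM 3D against BM 1D. The cause was not tested.

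Signs changed mostly where the change was small. In BM 1D against FH, Amotl2 was at 0.91 with total counts, 0.69 with limma at a pseudocount of 1 and 0.75 at 0.1, and Nuak2 at 0.38, 0.15 and 0.26. In LBDXL 3W against BM 3W YAP-/-, total counts gave -0.037 for Ajuba and -0.076 for F3, limma at 1 gave -0.064 for Amotl2, -0.070 for Ajuba and -0.12 for F3, and limma at 0.1 gave -0.070, -0.078 and -0.20. The Ankrd1 interaction was at -2.69 and -2.34 with limma at 1 and 0.1. With both libraries left out, F3 was at -0.013 from BM 3D to BM 3W, at -0.77 in LBDXL 3W against FH and at -0.94 in LBDXL 3W against BM 3W YAP-/-, where Ajuba was at -0.020. Cyr61 was then at -0.50 and Ccdc80 at -1.22 in LBDXL 3W against FH, and the Amotl2 interaction at 0.073. With single libraries left out, Ajuba ran from -0.19 to 0.39 in BM 3D against BM 1D and -0.15 to 0.54 in LBDXL 3W against BM 3W YAP-/-. Amotl2 ran from -0.22 to 0.17 in BM 1D against FH and -0.24 to 0.074 in the interaction, where Ankrd1 ran from -0.050 to 3.76. Axl ran from -0.43 to 0.42 in BM 1D against FH. Ccdc80 ran from -1.11 to 1.24 in BM 3D against FH, -0.14 to 0.77 in FH YAP-/- against FH, -2.55 to 0.46 in LBDXL 3W against BM 3W YAP-/- and -1.21 to 1.80 in LBDXL 3W against FH. Cyr61 ran from -0.70 to 1.54 in BM 3D against BM 1D, -0.25 to 1.07 in BM 3W against BM 3D, -2.80 to 0.32 in LBDXL 3W against BM 3W YAP-/- and -0.50 to 2.62 in LBDXL 3W against FH. F3 ran from -0.29 to 1.06, -0.45 to 0.90, -0.94 to 0.67 and -0.77 to 0.84 in the same 4 comparisons. With 2 libraries a group, changes near 1 log2 unit can be missed. They mostly were in the simulation, where few genes changed. Ankrd1 in fresh cells rests on 11 reads.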
